A study of Mus musculus with 48 samples.

Results

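The genes described here are small nucleolar RNA (snoRNA) host genes: Snhg1, Snhg3, Snhg4, Snhg5, Snhg6, Snhg8, Snhg12 and Gas5. They were chosen by name, as noncoding genes whose introns carry snoRNAs, and matched from the gene identifiers of the deposited tables to mouse symbols. 7 of the 8 were matched among 23862 identifiers, and Snhg4 was not analysed here. E14TG2a cells, a mouse embryonic stem cell line kept in 2i and LIF medium, were treated with 1 µM flavopiridol, an inhibitor of CDK9, the kinase needed for RNA polymerase II to leave its pause site. Polyadenylated RNA was sequenced after 30, 60, 120 and 240 min from nuclear, cytosolic and membrane fractions and from unfractionated extract (total), with 3 independently passaged replicates in each of the 16 groups, 48 libraries in all. All groups received the inhibitor and come from the same line. Untreated 0 min libraries enter only as the divisor of the deposited values, so each value is a level relative to 0 min in the same fraction. Fewer cells and less RNA per cell cannot be told apart in such libraries, and ratios say nothing of how much of a transcript one fraction holds against another.

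SnoRNAs are short RNAs that guide the chemical modification of ribosomal RNA in the nucleolus. Box C/D snoRNAs guide methylation of the ribose and box H/ACA snoRNAs guide pseudouridylation. In mammals most are cut out of introns, so a host gene serves as the carrier of the snoRNA while its spliced, polyadenylated RNA leaves the nucleus. Many host RNAs have little coding potential, carry a pyrimidine-rich start like that of ribosomal protein genes, and are known as substrates of nonsense-mediated decay, which degrades RNA during translation in the cytoplasm.

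In the mouse annotation (GRCm38, GENCODE) the 7 matched genes are short. Snhg1 lies at chr19:8723475-8726443 on the plus strand, Snhg3 at chr4:132348014-132353686 on the minus strand, Snhg5 at chr9:88521050-88522929 on the minus strand and Snhg6 at chr1:9941959-9944118 on the minus strand. Snhg8 lies at chr3:123507552-123508404 on the minus strand, Snhg12 at chr4:132308623-132311024 on the plus strand and Gas5 at chr1:161034422-161038539 on the plus strand. They contain 29 annotated snoRNA genes on their own strand: 10 in Gas5, 8 in Snhg1, 5 in Snhg12, 2 each in Snhg3 and Snhg5, and 1 each in Snhg6 and Snhg8. Snora16a in Snhg12 and Snord80 in Gas5 are each annotated under 2 overlapping identifiers, so the 29 genes have 27 distinct symbols. All 29 sit inside an intron of at least 1 host transcript, but only 2 of them lie in no exon of any transcript, because the annotation also holds transcripts that retain introns. Merged over its 18 transcripts Snhg1 is a single exonic block of 2969 bases, and Snhg12 with 10 transcripts is one of 2402 bases, whereas Snhg3 with 5 transcripts has 5 blocks that sum to 986 bases.

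SnoRNAs of Snhg3, Snhg5, Snhg6, Snhg12 and Gas5, the hosts listed in all nuclear libraries, are shown, since these are the known products of the introns, 5′ to 3′ as DNA from the annotation's transcripts. Capitals mark the first TGATGA (C box) and the last CTGA (D box), or the ACA before the end of a box H/ACA snoRNA.
Snord50a (Snhg5, chr9:88521529-88521600, minus strand): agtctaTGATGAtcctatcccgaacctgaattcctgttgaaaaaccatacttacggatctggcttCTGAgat
Snord50b (Snhg5, chr9:88521797-88521868, minus strand): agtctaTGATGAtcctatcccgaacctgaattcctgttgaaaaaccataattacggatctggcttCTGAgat
Snord87 (Snhg6, chr1:9942463-9942549, minus strand): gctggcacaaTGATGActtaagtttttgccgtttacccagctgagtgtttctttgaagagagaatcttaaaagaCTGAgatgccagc
Snord99 (Snhg12, chr4:132310691-132310764, plus strand): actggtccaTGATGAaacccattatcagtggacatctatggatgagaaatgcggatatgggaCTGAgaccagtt
Snord47 (Gas5, chr1:161038082-161038158, plus strand): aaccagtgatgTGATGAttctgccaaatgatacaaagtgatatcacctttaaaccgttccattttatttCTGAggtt
Snora73b (Snhg3, chr4:132352322-132352526, minus strand): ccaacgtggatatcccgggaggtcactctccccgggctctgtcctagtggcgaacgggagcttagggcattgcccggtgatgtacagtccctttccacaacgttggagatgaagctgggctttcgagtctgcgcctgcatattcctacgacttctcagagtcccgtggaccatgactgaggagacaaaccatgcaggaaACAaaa
The pair in Snhg5 differs at 1 of 72 positions (C50A, counted from the 5′ end, Snord50a first). Of the 29 snoRNA genes 17 held TGATGA near the 5′ end and CTGA near the 3′ end on the sense strand. Genes with these motifs further in, such as Gm24453, or without an exact TGATGA, such as Snord22 and Snord78, were not counted. The count is therefore not that of all box C/D genes. ACA stood 3 bases before the end in 6. Both identifiers of Snora16a and of Snord80 are in these counts. For comparison, 20.2% of the 1507 snoRNA genes of the annotation held both box C/D motifs near their ends.

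Start sites are shown because a pyrimidine-rich start is known for this gene family, for 5 of the 7 starts of hosts in RefSeq (GRCm38.p6), that of Snhg8 and the upstream start of Gas5 being left out, from 20 bases before the start to 30 bases into the gene. Capitals mark the longest run of C and T within 10 bases of the start on the sense strand.
Snhg1 (chr19:8723467-8723516, plus strand): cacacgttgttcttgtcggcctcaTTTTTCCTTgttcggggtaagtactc
Snhg12 (chr4:132308658-132308707, plus strand): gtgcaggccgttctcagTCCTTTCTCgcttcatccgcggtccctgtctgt
Snhg5 (chr9:88522868-88522917, minus strand): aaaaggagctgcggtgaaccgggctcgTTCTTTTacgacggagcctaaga
Gas5, downstream start (chr1:161035146-161035195, plus strand): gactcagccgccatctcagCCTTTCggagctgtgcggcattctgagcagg
Snhg3 (chr4:132353657-132353706, minus strand): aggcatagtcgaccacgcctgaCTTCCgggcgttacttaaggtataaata
The run was 9 bases long in Snhg1 and Snhg12, a length that 9.5% of 32851 mouse promoters reach, 7 in Snhg5 and Snhg8 (19.7%), 6 at the downstream start of Gas5 (29.2%) and 5 in Snhg3 (44.9%). The upstream Gas5 start had a run of 3 bases, which 82.9% of promoters reach.

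How often a host was listed differed widely, and a gene at 0 is not listed in a library. Snhg3 was listed in all 48 libraries, Snhg5 in 46, Snhg6 in 44, Gas5 in 42, Snhg12 in 36, Snhg1 in 35 and Snhg8 in 5. In the nucleus 5 of the 7 were listed in all 12 libraries (Snhg3, Snhg5, Snhg6, Snhg12 and Gas5). In the membrane fraction Snhg3 and Snhg5 were, and in the total and the cytosol Snhg3 alone. Libraries listed between 15067 and 19501 genes. Of 9 stem cell marker genes 7 were listed in all 48 libraries. Of 6 fibroblast genes none was listed in all 48, Dcn and Lum were never listed, and Col1a1 was listed in 44 and Thy1 in 43.

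**Figure D1:**
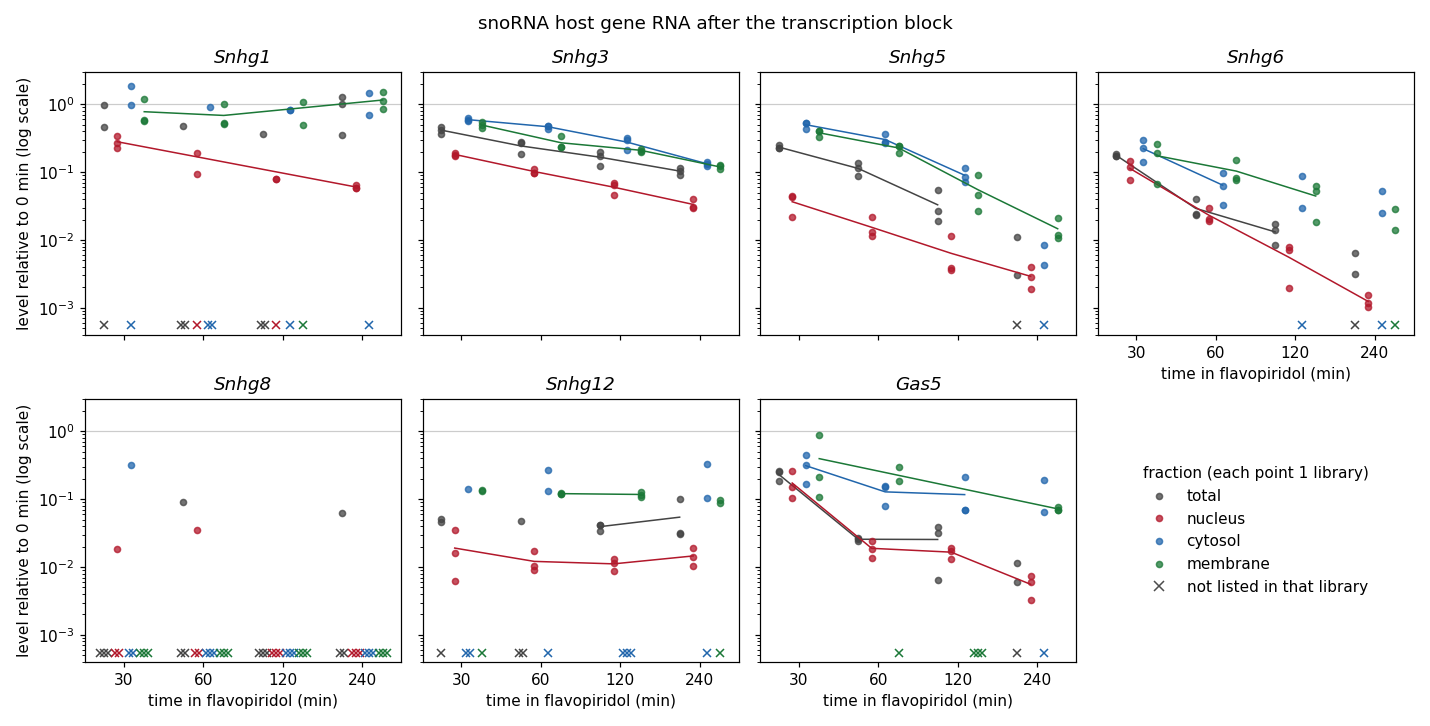
Level relative to 0 min (log axis) of the 7 matched host genes against time in flavopiridol (min). Each point is 1 library, colours are fractions, lines join means of groups with 3 values, and crosses at the lower edge mark libraries that do not list the gene. The nuclear points of Snhg3 and Snhg5 lie below those of the other fractions at 30 min, and the nuclear points of Snhg12 stay between 0.00628 and 0.0346 from 30 min on.

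Read depth is not stated, but within a fraction the values of a gene are whole multiples of a smallest step, which gives the least number of reads behind each value (tolerance 0.06 of a step). Snhg3 had 30 to 198 steps in a library. Snhg5 had 3 to 39 steps in the nucleus and 1 to 99 in the cytosol. Snhg6 had 2 to 121 steps in the nucleus but 1 to 9 in the cytosol, and Gas5 had 3 to 105 in the nucleus but 1 to 5 in the cytosol. Snhg1 never had more than 4 steps in any fraction. Its 0 min level was worth only 2.0 to 3.1 steps in the total and 1.0 to 1.4 in the cytosol. Ratios of Snhg1 outside the nucleus, which ranged from 0.352 to 1.88, therefore carry no direction. Snhg12 was at 1 step in all 10 membrane libraries that listed it and in 8 of 9 total libraries, so there its ratio is that of a single step.

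**Figure D2:**
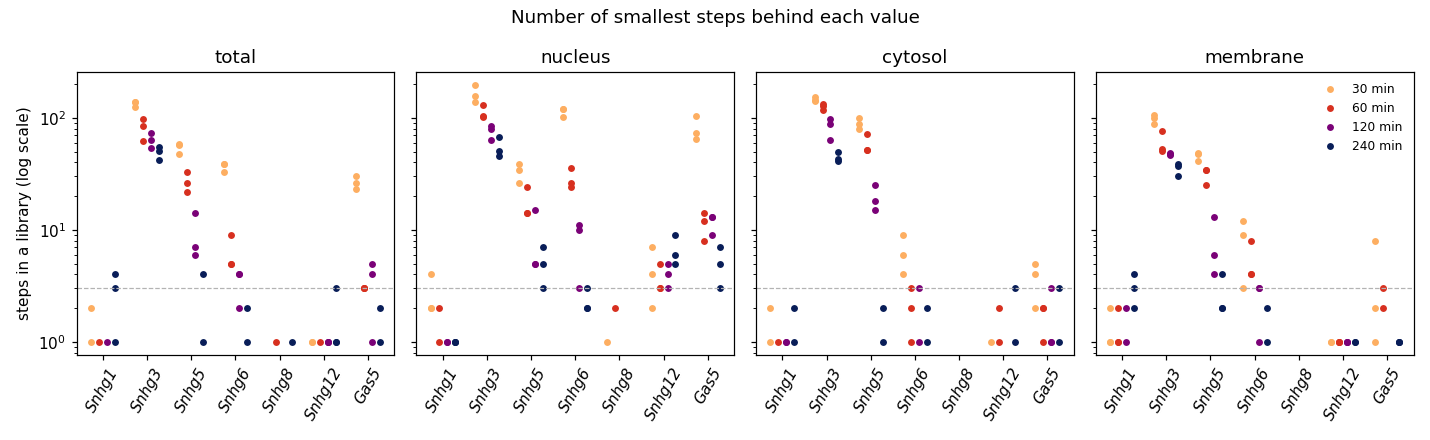
Number of smallest steps behind each listed value (log axis) for each host gene, by fraction and time. The dashed line is at 3 steps. Snhg3 stays at 30 steps or more in every library, and Snhg1 and Snhg12 outside the nucleus stay at 4 or fewer; Snhg8 in the cytosol was listed once and has no step.

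Snhg3, which hosts the pair Snora73a and Snora73b, gave the most complete record. In the total its level at 30 min was 0.359, 0.468 and 0.42 in replicates 1 to 3 (mean 0.416 ± 0.0549, SD, n = 3), and at 240 min it was 0.103, 0.116 and 0.0919 (0.103 ± 0.0121). In the cytosol it was 0.587, 0.562 and 0.629 at 30 min (0.593 ± 0.0340) and 0.124, 0.143 and 0.132 at 240 min (0.133 ± 0.00991). The membrane fraction had 0.451, 0.54 and 0.491 at 30 min and 0.126, 0.121 and 0.11 at 240 min. The nucleus was the lowest fraction, with 0.174, 0.194 and 0.179 at 30 min (0.182 ± 0.0101) and 0.0306, 0.0399 and 0.0297 at 240 min (0.0334 ± 0.00564). At each of the 4 times every nuclear library lay below every library of the other fractions.

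The slope of log2 level on time, fitted with limma over all genes listed in the 12 libraries of a fraction, was below 0 in all 4 fractions for Snhg3. It fell by 0.52 ± 0.08 (SE) per h in the total (adjusted p = 0.000129), by 0.65 ± 0.09 in the nucleus (3.42e-05), by 0.62 ± 0.05 in the cytosol (1.04e-07) and by 0.52 ± 0.07 for the membrane (3.05e-05). The median gene had a slope of -0.22 in the total, and of -0.26 (membrane), -0.28 (cytosol) and -0.30 (nucleus) elsewhere. Centred on the median gene of each library, the Snhg3 slopes were -0.29 (total), -0.34 (nucleus), -0.33 (cytosol) and -0.26 (membrane), and all were still called. The nuclear slope differed from the cytosolic by -0.04 ± 0.09 (limma adjusted p = 0.804), and the membrane slope by 0.10 ± 0.08 (0.575). The levels themselves did differ: the nucleus differed from the cytosol by -1.70 ± 0.18 on the log2 scale at 30 min (limma adjusted p = 7.44e-06) and by -2.004 ± 0.18 at 240 min (5.12e-08). By the steps, all libraries of a fraction share the same 0 min divisor for a gene. Error in that divisor is therefore in no SE or p-value of a level difference between fractions, for any host. Of all genes tested 23.1% were called lower in the nucleus at 30 min and 34.8% at 240 min. After centring the differences were -1.44 and -1.64 and were still called. For the membrane fraction against the cytosol the difference was -0.27 ± 0.16 at 30 min (adjusted p = 0.34) and -0.16 ± 0.16 at 240 min (0.465).

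A single exponential with a free level at 0 min gave Snhg3 half-lives of 89.4 ± 6.29 min (cytosol), 80.9 ± 16.9 min (membrane), 79.0 ± 6.41 min (total) and 57.7 ± 10.5 min (nucleus), each with the SD over the 3 replicate series. With the level at 0 min held at 1 they were 56.2, 34.8, 28.5 and 13.3 min in the same order. The median gene, level free, had 207.9, 218.9, 244.6 and 173.3 min. Both fits differed in every fraction, and in the nucleus Snhg3 had lost most of its level before 30 min. Centring moved the Snhg3 half-life to 169.8, 199.1, 173.1 and 136.3 min.

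Snhg3 overlaps other genes, which limits how its reads can be assigned. Rcc1, which encodes the guanine nucleotide exchange factor of Ran, spans 5592 bases of it on the same strand, and the noncoding gene Gm17300 overlaps 1611 bases on the opposite strand. Gm17300 had the highest Pearson correlation with Snhg3 among 10693 genes over the 48 libraries (r = 0.956, on log2 ratios after subtraction of each library's median). In the nucleus Gm17300 was at 0.130 ± 0.0135 at 30 min and 0.0269 ± 0.00307 at 240 min. The paper names a stranded library kit, but the counting is not stated to use strand. Whether reads of Snhg3 and Gm17300 were told apart is therefore not known. The overlaps given are of whole gene spans, and the overlap of exons was not measured. Among named genes outside the host set the one most like Snhg3 was Rps9, a protein of the small ribosomal subunit (r = 0.948, 8602 genes ranked over 48 libraries). These correlations are descriptions over libraries that share times and fractions.

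Snhg5, the host of the pair of Snord50 genes shown above, fell further. In the nucleus it was at 0.022, 0.0452 and 0.0426 at 30 min (0.0366 ± 0.0127) and at 0.00192, 0.00401 and 0.0028 at 240 min (0.00291 ± 0.00105). In the total it was at 0.227, 0.226 and 0.249 at 30 min, and at 240 min at 0.0112 and 0.00304 with replicate 2 not listed. In the cytosol it was at 0.528, 0.438 and 0.534 at 30 min (0.500 ± 0.0537) and at 0.0841, 0.0703 and 0.115 at 120 min. By 240 min the cytosol listed it in replicates 1 and 3 only, at 0.0084 and 0.00427, which are 2 steps and 1 step. In the membrane fraction it went from 0.402, 0.404 and 0.332 at 30 min to 0.0212, 0.0107 and 0.012 at 240 min. So from 30 to 120 min the nuclear values lay below all others, and at 240 min the listed values of nucleus and cytosol lay between 0.00192 and 0.0084 and overlapped.

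Among genes listed in all libraries Snhg5 could be tested in 2 fractions. It fell by 0.97 ± 0.17 on the log2 scale per h in the nucleus (limma adjusted p = 0.000211) and by 1.37 ± 0.14 in the membrane fraction (1.83e-06). With genes listed in at least 9 of 12 libraries and missing values left missing, it fell by 1.52 ± 0.17 in the total (limma adjusted p = 1.2e-05) and by 1.83 ± 0.09 in the cytosol (2.08e-08). Only 0.278% of the 14761 genes tested in the cytosol had a steeper fall. Under the same filter the difference of nucleus from cytosol at 30 min was -3.84 ± 0.43 (limma adjusted p = 2.64e-05, 19.2% of all genes called lower), and 0.0932% of genes had a larger deficit. This call held under each alternative tried. The nuclear slope exceeded the cytosolic by 0.86 ± 0.20 per h (limma adjusted p = 0.00617, 9.25% of genes called higher), that is, the nucleus fell more slowly after 30 min. The slope difference was lost without replicate 1 (adjusted p = 0.0694) or replicate 3 (0.116), and it rested on 240 min: over 30, 60 and 120 min it was -0.06 (adjusted p = 0.95). At 240 min nucleus and cytosol differed by -1.11 ± 0.48 (limma adjusted p = 0.0622). The membrane fraction was 1.22 ± 0.41 higher than the cytosol at 240 min (limma adjusted p = 0.0356, 14.4% of genes called higher), which was lost with unlisted libraries set to 0 (0.81, adjusted p = 0.133) and without replicate 2 or 3 (adjusted p = 0.0561 and 0.413).

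The half-life of Snhg5 with a free level at 0 min was 38.2 ± 2.38 min for the cytosol, 36.15 ± 4.95 min for the membrane and 30.0 ± 3.30 min for the total. The nuclear estimate of 28.3 ± 38.1 min is not resolved, since its 3 series gave 82.9, 15.7 and 18.3 min. With the level at 0 min held at 1 the nucleus had 6.34 min against 32.7 min in the cytosol. The nuclear library of replicate 1 at 30 min had a median log2 ratio over genes of -0.7555, against -0.07592 and -0.2813 in replicates 2 and 3, and the Snhg5 value there, 0.022, was the lowest of the 3. Without that library the difference from the cytosol at 30 min was -3.505, still called.

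Snhg6 carries Snord87 and reached the lowest levels of the set. In the nucleus it was at 0.0775, 0.146 and 0.118 at 30 min, at 0.0299, 0.0191 and 0.0201 at 60 min, at 0.007, 0.00781 and 0.00194 at 120 min and at 0.00116, 0.00104 and 0.00153 at 240 min. Replicates at 30, 60 and 120 min did not overlap between times, and the values at 240 min, 2 to 3 steps each, lay below them. At 240 min 0.0075% of the 13343 genes listed in all nuclear libraries had a lower mean. The total was at 0.173, 0.173 and 0.184 at 30 min, at 0.0233, 0.04 and 0.0244 at 60 min and at 0.00312 and 0.00653 at 240 min, with replicate 3 not listed. In the nucleus it fell by 1.72 ± 0.21 on the log2 scale per h (limma adjusted p = 1.21e-05), which 0.210% of genes exceeded. Under the filter of 9 of 12 it fell by 1.37 ± 0.24 per h in the total (limma adjusted p = 0.000423) and by 0.85 ± 0.19 in the membrane fraction (0.00259).

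Cytosolic Snhg6 was at 0.301, 0.139 and 0.225 at 30 min and at 0.0526 and 0.025 at 240 min, which are 2 steps and 1 step. Its cytosolic slope of -0.59 ± 0.23 per h had an adjusted p of 0.0446 in limma and lost the call in 8 of the 11 alternatives, among them the replicate block (0.0654) and each replicate left out (0.0609 to 0.331). Nucleus against cytosol, the difference at 240 min was -4.89 ± 0.61 (limma adjusted p = 6.55e-06, 33.1% of all genes called lower), but with unlisted libraries at 0 and log2(ratio + 0.01) it was -1.32 (adjusted p = 0.148). At 30 min it was -0.94 ± 0.55 (limma adjusted p = 0.218). The slope difference of -1.13 ± 0.32 per h (limma adjusted p = 0.0192, 7.30% of genes called lower) was lost without any 1 of the replicates (0.0539 to 0.173) and was -0.11 (0.872) with unlisted libraries at 0. Single steps set the cytosolic level at 240 min, so the size of these differences is bounded by depth.

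Gas5, the host of 10 annotated snoRNA genes, showed a fast early fall. In the nucleus it was at 0.104, 0.264 and 0.151 at 30 min and at 0.0138, 0.0184 and 0.0244 at 60 min. It was then at 0.0189, 0.0133 and 0.0175 at 120 min, which overlaps 60 min, and at 0.00604, 0.00324 and 0.00741 at 240 min. The total had 0.187, 0.251 and 0.259 at 30 min and 0.0257, 0.0244 and 0.0269 at 60 min. These 60 min values were 3 steps in each total library. Gas5 fell by 1.14 on the log2 scale per h in the nucleus (limma -1.14 ± 0.23, adjusted p = 0.000673) and, under the filter of 9 of 12, by 1.15 ± 0.30 in the total (limma adjusted p = 0.00711; 0.0845 without replicate 2).

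Outside the nucleus Gas5 was sparse. The cytosol held 1 to 5 steps, with 0.32, 0.166 and 0.45 at 30 min, 0.0701, 0.211 and 0.0691 at 120 min and 0.189 and 0.064 at 240 min, and its slope was -0.32 ± 0.21 (limma adjusted p = 0.199). The membrane fraction listed it in 8 of 12 libraries, in none at 120 min. Nucleus against cytosol, Gas5 differed by -0.85 ± 0.53 at 30 min (limma adjusted p = 0.248) and by -4.39 ± 0.59 at 240 min (limma adjusted p = 9.81e-06). The difference at 240 min was -1.77 (adjusted p = 0.075) with unlisted libraries at 0. The cytosolic 0 min level of Gas5, the shared divisor, was worth only 11.1 to 15.9 steps.

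Snhg12 had the lowest nuclear mean of the hosts at 30 min, and no later fall passed the test. In the nucleus it was at 0.00628, 0.0346 and 0.0162 at 30 min, at 0.017, 0.00903 and 0.0103 at 60 min, at 0.0115, 0.00871 and 0.0132 at 120 min and at 0.0142, 0.0191 and 0.0104 at 240 min. The groups overlapped at all 4 times, at 2 to 9 steps a library, whereas the 0 min level was worth 202.3 to 480.5 steps. At 30 min 0.0150% of the 13343 genes had a lower nuclear mean and at 240 min 1.00% did. The nuclear slope was 0.01 ± 0.15 per h (limma adjusted p = 0.965) and, relative to the median gene, 0.32 (adjusted p = 0.0495), while its sign turned in 6 alternatives, so no direction is given. Total values ranged from 0.0307 to 0.1 and membrane values from 0.0869 to 0.138, at single steps as given above. In the cytosol 5 libraries listed it, at 0.105 to 0.332.

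Snhg1 and Snhg8 were at the limit of the data. Snhg1 in the nucleus was at 0.346, 0.272 and 0.223 at 30 min and at 0.0654, 0.0586 and 0.0574 at 240 min, the latter 1 step each. Its slope under the filter of 9 of 12 was -0.56 ± 0.12 (limma adjusted p = 0.00226), with 6 of 10 values at 1 step. The call was lost after centring (-0.24, adjusted p = 0.117) and with unlisted libraries at 0 (-0.37, 0.391). In the membrane fraction the slope was 0.21 ± 0.10 (limma adjusted p = 0.112). Some snoRNA genes nested in Snhg1 held more reads than Snhg1 itself. Snord22 was listed in 45 libraries, at 7 to 36 steps in the nucleus, whereas Gm25855 was listed in 3. How reads were shared between Snhg1 and its nested genes was not tested. Snhg8 was listed in 2 total libraries (0.0913 at 60 min, 0.0633 at 240 min), 2 nuclear libraries (0.0185 at 30 min, 0.0355 at 60 min) and 1 cytosolic library (0.315 at 30 min). No test was possible for Snhg8.

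**Figure D3:**
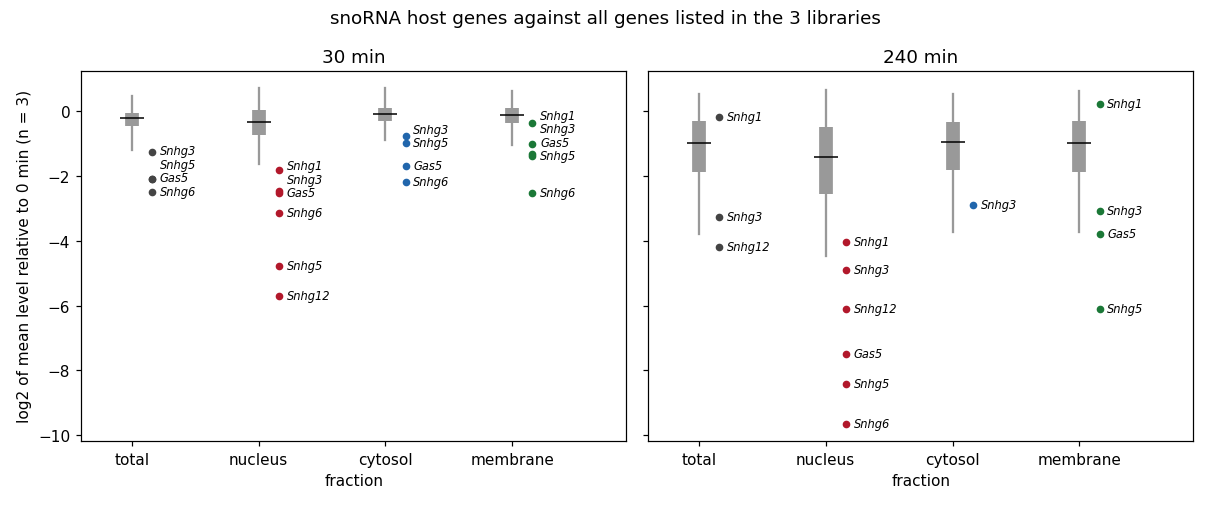
Log2 of the mean level relative to 0 min (n = 3) at 30 min (left) and 240 min (right) in each fraction. Grey bars run from the lower to the upper quartile of all genes listed in the 3 libraries, thin lines their 5th to 95th percentile and black ticks the median; coloured points are host genes listed in all 3 libraries, with labels moved apart where points touch. In the nucleus the 6 host genes lie below the thin line at 30 min, from Snhg1 at a mean of 0.281 to Snhg12 at 0.0190.

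Set beside all genes, most listed hosts were already low at 30 min, as a description with no test. Snhg1 outside the nucleus cannot be placed. Its single step was a ratio of 0.324 to 0.49 (total), 0.7015 to 0.9744 (cytosol) and 0.3717 to 0.5885 (membrane). Lower values are not listed, so the membrane share of Snhg1 given below is not resolved. In the nucleus at 30 min the 6 hosts listed in all 3 libraries had between 0.0150% and 2.05% of the 13343 genes below them. In the total the values were 1.79% for Snhg3, 0.470% for Snhg5 and Gas5 and 0.266% for Snhg6 of 12762 genes. In the cytosol they were 4.51% for Snhg3, 2.01% for Snhg5, 0.217% for Gas5 and 0.0334% for Snhg6 of 11979 genes, while Snhg1 was listed in 2 libraries at 1.88 and 0.974. For the membrane they were 19.8% for Snhg1 (mean 0.775 ± 0.348, n = 3), 2.51% for Snhg3, 1.04% for Gas5, 0.862% for Snhg5 and 0.0806% for Snhg6 of 12408 genes. The membrane values of Gas5 at 30 min were 0.87, 0.107 and 0.21 in replicates 1 to 3, at 1 to 8 steps a library. Its share there is thus not resolved. Genes at 0 are not listed, and the genes compared were those listed in all 12 libraries of a fraction. Snhg1 everywhere, and Snhg5, Snhg6 and Gas5 in some fractions, were not listed in all 12. Other genes that dropped out at any time were left out of the comparison, whereas these hosts were kept. Their shares can therefore look more extreme than among all genes detected at 30 min, by an amount that was not tested.

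Counted over the set, Snhg3 was the only host tested in the total and the cytosol and was called lower in both, where 56.9% and 67.1% of all genes were called lower. In the nucleus 4 of 5 tested hosts were called lower (61.9% of all genes) and in the membrane fraction both tested hosts (62.2%). The tested hosts had a median slope of -0.97 (nucleus) and -0.94 (membrane) against -0.30 and -0.26 over all genes. Under the filter of 9 of 12 the counts were 4 of 5 in the total (51.2% of all genes), 5 of 6 in the nucleus (56.9%), 3 of 4 in the cytosol (59.7%) and 3 of 5 in the membrane fraction (56.5%). No host was called higher in these slopes, where 3.39% (total), 3.32% (nucleus), 2.95% (cytosol) and 4.09% (membrane) of all genes were, or 3.00%, 3.12%, 2.59% and 3.46% under the filter of 9 of 12. After centring 31.0% of genes were called lower and 28.8% higher in the total, and 29.2% and 29.6% in the nucleus, where 4 hosts were called lower and Snhg12 higher. Snhg3 in the cytosol, and Snhg3 and Snhg5 in the membrane fraction, stayed called lower, beside 32.4% and 30.9% of genes. Cytosolic Snhg6, called lower only under the filter of 9 of 12, lost its call after centring (-0.32, limma adjusted p = 0.276).

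The early and the late part of the course were compared with 1 mean per time. From 30 to 120 min in the nucleus the log2 change was -4.54 ± 0.51 for Snhg6, -3.29 ± 0.43 for Gas5, -2.68 ± 0.52 for Snhg5 and -1.62 ± 0.25 for Snhg3 (limma adjusted p = 0.000167, 0.000302, 0.00221 and 0.000639), 4 of 5 tested hosts against 42.1% of all genes. Snhg12 had -0.47 ± 0.55 (0.522). The Snhg5 call was lost without replicate 2 (-2.255, adjusted p = 0.0698) and without replicate 3 (-2.23, 0.0871). From 120 to 240 min in the nucleus Snhg6 fell by 1.95 ± 0.51, Gas5 by 1.64 ± 0.43 and Snhg3 by 0.84 ± 0.25 (limma adjusted p = 0.0128, 0.0132 and 0.0234), 3 of 5 against 34.3% of all genes, while Snhg5 had -0.97 ± 0.52 (0.174). These late calls were lost for all 3 without replicate 1 or without replicate 2, with a pseudocount of 0.1 and with unlisted libraries at 0, and that of Snhg3 also after centring (-0.31, adjusted p = 0.314). In the cytosol Snhg3 fell by 1.12 ± 0.16 from 30 to 120 min and by 1.03 ± 0.16 from 120 to 240 min (limma adjusted p = 0.000324 and 0.000371), where 48.8% and 47.9% of genes were called lower. Under the filter of 9 of 12 cytosolic Snhg5 fell by 2.50 ± 0.29 and then by 3.88 ± 0.33 (limma adjusted p = 0.00024 and 2.37e-05, 41.5% and 39.1% of genes). In the membrane fraction Snhg5 fell by 2.97 ± 0.41 and then by 1.79 ± 0.41 (limma adjusted p = 0.000236 and 0.00532), and Snhg3 by 1.23 ± 0.17 and 0.81 ± 0.17 (0.000261 and 0.00358), where 52.5% and 37.6% of all genes were called. The late membrane call of Snhg5 was lost without replicate 3 (adjusted p = 0.0976) and with unlisted libraries at 0 (0.0785), and that of Snhg3 after centring (0.0755). In the total Snhg3 fell by 1.35 ± 0.24 from 30 to 120 min (limma adjusted p = 0.00121, 52.0% of genes) and had -0.66 ± 0.24 from 120 to 240 min (0.059, 29.2% of genes). Under the filter of 9 of 12 the hosts called lower from 30 to 120 min in the total were Gas5 (-3.54), Snhg3 (-1.35), Snhg5 (-2.97) and Snhg6 (-3.81), beside 44.7% of genes. No host was called higher from 30 to 120 min in the total (0.940% of genes, 0.904% under that filter), the nucleus (2.08%) or the membrane fraction (2.37%, 1.91%), nor from 120 to 240 min in the total (5.92%).

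**Figure D4:**
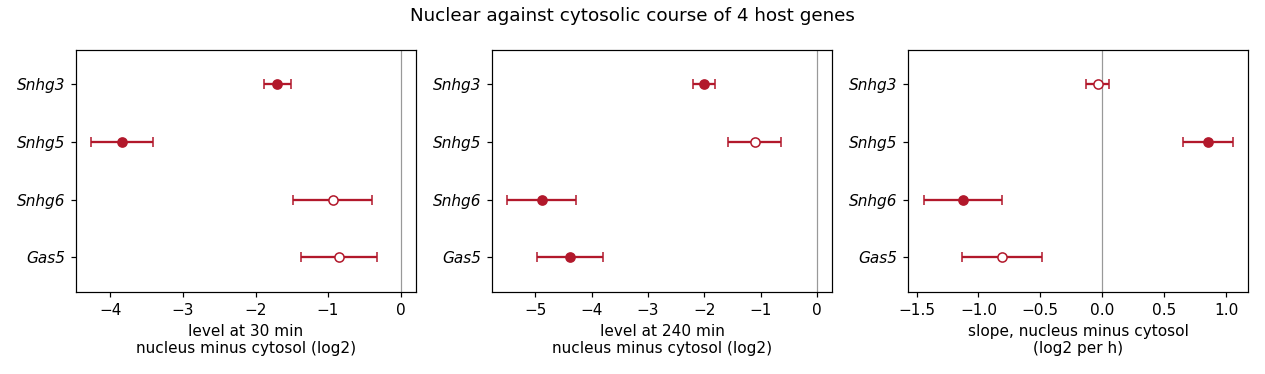
Difference between nucleus and cytosol for the 4 host genes listed in at least 9 of 12 libraries of both fractions: log2 level at 30 min (left), at 240 min (middle) and slope per h (right). Points are limma estimates, bars are 1 SE, and filled points have an adjusted p under 0.05. Snhg3 sits at -1.70 and -2.004 with a slope difference of -0.04, and Snhg5 moves from -3.84 at 30 min to -1.11 at 240 min.

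The nested snoRNA genes are listed apart from their hosts. 22 of the 29 were listed in at least 1 library and 3 in all 48: Snora73b of Snhg3 and the predicted box C/D genes Gm22357 and Gm23212 of Gas5. In a library of polyadenylated RNA such reads can stem from a host transcript that retains the intron as well as from the snoRNA, and these cannot be told apart. Snora73b also lies inside the spans of Gm17300 (opposite strand) and Rcc1 (same strand). The limit given for the reads of Snhg3 therefore holds for Snora73b too. Snora73b was at 0.115 ± 0.0362 in the nucleus at 30 min and at 0.0190 ± 0.00461 at 240 min, and at 0.205 ± 0.107 and 0.0214 ± 0.0151 in the cytosol. Gm22357 was at 0.0283 ± 0.0140 in the nucleus at 30 min and at 0.00411 ± 0.000296 at 240 min. Over the 16 nested genes listed in all 3 nuclear libraries at 30 min the means ranged from 0.0149 to 0.169 (median 0.0495). At 240 min the 15 listed ranged from 0.00303 to 0.0190 (median 0.00569). In limma Snora73b fell by 0.66 ± 0.15 on the log2 scale per h there (adjusted p = 0.00198).

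The lists of related genes show how far the course is shared, with counts only. In the total 56.9% of all genes were called lower. Of 13 other noncoding snoRNA hosts 8 were tested there, of which 4 were called lower and none higher, with Snhg17 (-0.50), Snhg20 (-0.46) and Snhg15 (-0.41 log2 per h) the steepest. Of 21 protein-coding snoRNA hosts 19 were tested and 7 were called lower, with Gnl3 (-0.63), Eif4a2 (-0.56) and Nop56 (-0.41) the steepest. Of 20 snoRNP proteins and assembly factors all were tested and 16 were called lower, with Znhit3 (-0.73), Znhit6 and Nufip1 (-0.51 each), which act in snoRNP assembly, the steepest. The median slopes in the total were -0.20, -0.02 and -0.23, against -0.22 over all genes. In the nucleus, where 61.9% of all genes were called lower, the counts were 5 of 8, 6 of 19 and 16 of 20, and Rpl4 of the protein-coding hosts was called higher (0.10). There Snhg17 (-0.58), Zfas1 (-0.54) and Snhg15 (-0.42) led the noncoding hosts, Eif4a2, Gnl3 and Nop56 the protein-coding ones and Znhit6 (-0.76), Znhit3 (-0.68) and Nufip1 (-0.56) the snoRNP list. These calls depend on the scaling to stable genes: relative to the median gene of each library the total had 1 lower and 3 higher among the noncoding hosts, 3 and 14 among the protein-coding hosts and 5 and 6 among the snoRNP genes, beside 31.0% lower and 28.8% higher over all genes.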

How the data were processed

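Values were taken from the tables deposited for 48 libraries. STAR 2.7.6, RSEM 1.3.3 and mm10 are named in the submitters' processing notes. The authors scaled libraries on genes with half-lives over 14 h and divided each series by its 0 min level, so the deposited values are ratios. By the steps, the divisor of a gene is the same for all libraries of a fraction. Genes at 0 are not listed. Any decay of the scaling genes would shift all ratios of a library together. Groups and replicate numbers came from the titles; titles give 240 min as the last time and the protocol 180 min. Members, lists and tests were chosen with earlier results of these data known. All 8 hosts were named, and from each list at most 3 called genes with the steepest slope in each direction, and the gene most like a host listed in all 48 libraries, predicted genes skipped. Gm17300, Rcc1 and the nested snoRNA genes were named for their overlap, after values were seen.

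Slopes, differences between times and between fractions were fitted on log2 ratios with limma 3.58.1 under R 4.3.3 (moderated by eBayes along mean level; two-sided tests; calls at a Benjamini-Hochberg adjusted p under 0.05 over all genes listed in all libraries used, or in at least 9 of 12 of each fraction). Half-lives are least squares fits of A·exp(-kt) in Python 3.11.15. Depth is not stated, and precision at low levels is given by steps. Tests were run on simulated data first: of 100 genes with a slope of 0.5 put into the total (12762 genes) 82% were recovered, with 10 calls among unchanged genes. For the slope of nucleus against cytosol (11232 genes) 68% were recovered, with 5 such calls. Simulated noise was normal and genes were listed in all libraries used. Recovery for hosts at few steps or with unlisted libraries was thus not tested. Positions come from GENCODE vM21 (GRCm38). Alternatives covered filters, pseudocounts, scaling, blocks, single replicates, the time window and the last time.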

Additional observations from a re-analysis of the deposited data

Results flagged for a closer look

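8 results stood out because a host gene's course since 0 min differed between fractions by limma's test of the difference itself. Snhg3 was lower in the nucleus than in the cytosol at 30 min (-1.70 on the log2 scale) and at 240 min (-2.004). Snhg5 was lower there at 30 min (-3.84) and had the flatter nuclear slope (0.86 log2 per h), and was higher in the membrane fraction than in the cytosol at 240 min (1.22). Snhg6 had the steeper nuclear slope (-1.13) and the lower nuclear level at 240 min (-4.89), and Gas5 the lower nuclear level at 240 min (-4.39). For Snhg3 and for Snhg5 at 30 min the values rest on 26 steps or more in a library. For Snhg6 and Gas5 at 240 min the cytosol held 1 to 3 steps, and the part of depth in those differences was not tested. A single cytosolic step was a ratio of 0.025 to 0.0375 for Snhg6 and 0.063 to 0.090 for Gas5, and lower values are not listed. Both level calls were lost with unlisted libraries at 0 (limma adjusted p = 0.148 and 0.075). The Snhg6 slope call was lost without any 1 of the replicates (limma adjusted p = 0.0539 to 0.173). The slope and membrane results of Snhg5 rest on cytosolic values of 1 to 2 steps at 240 min, with replicate 2 not listed. Both calls were lost without replicate 3 (limma adjusted p = 0.116 and 0.413). The comparisons at 30 min were added after the data were seen. Error in the 0 min divisor, which the libraries of a fraction share, is not part of the tests of levels.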

How the results depend on the processing

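At 240 min every host but Snhg3 was at 9 steps or fewer in each library that listed it, and a change below 1 step in a library cannot be seen. Of the single-host values recomputed, 756 kept their direction and their side of the threshold, 70 lost the call, 12 gained it and 43 turned their sign. The cause of these changes was not tested, except that filters change which hosts are tested.

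Keeping genes listed in at least 9 of 12 libraries raised the hosts called lower in the total from 1 to 4 (slope), from 1 to 4 (30 to 120 min) and from 0 to 2 (120 to 240 min). In the cytosol the counts went from 1 to 3, from 1 to 3 and from 1 to 2. Nucleus against cytosol, 1 host was then called lower and 1 higher for the slope, 3 lower at 240 min and 2 lower at 30 min, and 1 was higher in the membrane fraction than in the cytosol at 240 min. Keeping genes listed in all 48 libraries left Snhg3 alone, so the count was 1 for the slopes and for both intervals in the nucleus and membrane, and 1 for 120 to 240 min in the total.

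With unlisted libraries at 0 the counts called lower were 4 (slope) and 4 (30 to 120 min) in the total, 3 (slope), 2 (30 to 120 min) and 2 (120 to 240 min) in the cytosol, 0 (nucleus) and 1 (membrane) for 120 to 240 min. Nucleus against cytosol, 1 host was higher in slope and 2 were lower at 30 min. The Snhg12 slopes became 0.36 (total) and -0.010 (nucleus), its changes from 30 to 120 min 0.59 (total) and 1.09 (membrane), that of Snhg1 in the membrane fraction -2.07, the later change of Snhg1 in the nucleus 0.71 and of Gas5 in the cytosol -1.08, and the slope difference of Snhg3 between nucleus and cytosol 0.024.

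With a pseudocount of 0.1 no host (0) was called lower from 120 to 240 min in the nucleus, the Snhg12 slopes were 0.011 (total) and -0.0062 (nucleus), and the slope differences between nucleus and cytosol were 0.031 for Snhg6 and 0.17 for Snhg3. Centring on each library's median gene made 1 host (Snhg12) higher in nuclear slope and left 1 lower from 120 to 240 min in the membrane fraction. It gave Snhg12 slopes of 0.23 (total) and 0.13 (membrane), changes from 30 to 120 min of 0.33 (total), 0.16 (nucleus) and 0.42 (membrane) and a later membrane change of 0.046, and Snhg1 a later nuclear change of 0.15. Scaling each library to the same total gave Snhg12 slopes of 0.15 (total) and 0.061 (membrane), changes from 30 to 120 min of 0.25 and 0.31 there, and 1 host called lower from 120 to 240 min in the total, as did a fit without the mean trend (1).

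Over 30, 60 and 120 min the hosts called lower in slope were 4 in the total and 2 in the cytosol, the Snhg12 nuclear slope was -0.28, the slope difference of Snhg5 was -0.057 (nucleus against cytosol) and -0.33 (membrane against cytosol), and the latter was 0.0051 for Snhg6 and -0.0034 for Snhg3. With 180 min as the last time the Snhg12 nuclear slope was -0.022.

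Libraries with the same replicate number had a median correlation of deviations of 0.0247 between times of a fraction (-0.0885 to 0.273) and 0.0397 between fractions at a time (-0.0959 to 0.246). With different numbers the medians were -0.00588 and -0.0196. By the paper's protocol the fractions of a harvest come from the same cells, so low correlations cannot show that libraries are unpaired. The main tests between fractions treated libraries as independent, and a block by harvest was an alternative. The replicate block left 47 of 48 counts of calls as they were. It made 1 host, Snhg3, lower from 120 to 240 min in the total (adjusted p = 0.0227), lost Snhg6 in the cytosol for the slope (0.0654) and for 30 to 120 min (0.104), changed no other call of a host, and gave Snhg12 a total slope of 0.060.

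Leaving out 1 replicate at a time gave ranges of hosts called lower of 1 to 3 (slope and 30 to 120 min in the total, 30 to 120 min in the cytosol), 1 to 2 (slope and 120 to 240 min in the cytosol, 120 to 240 min in the membrane fraction, nucleus against cytosol at 240 and at 30 min) 0 to 1 (120 to 240 min, total and nucleus), 3 to 4 (30 to 120 min in the nucleus) and 2 to 3 (slope for the membrane). Hosts called higher ranged from 0 to 1 for the slope between nucleus and cytosol and for the membrane level against the cytosol at 240 min. Single values ranged from -0.92 to 0.66 for Gas5 (120 to 240 min, cytosol) and from -1.01 to 0.31 for Snhg6 there. Those of Snhg1 in the membrane fraction ranged from -0.74 to 0.92 (30 to 120 min) and from -0.15 to 1.39 (120 to 240 min). Nuclear Snhg12 ranged from -1.14 to 0.29 (30 to 120 min), from -0.015 to 0.72 (120 to 240 min) and from -0.083 to 0.069 (slope), and its total slope from 0.065 to 0.090. Snhg6 in the membrane fraction against the cytosol ranged from -1.90 to 0.19 at 240 min and from -1.19 to 0.35 at 30 min. Without the nuclear 30 min library of replicate 1 the Snhg12 nuclear slope was -0.071.

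The Snhg3 half-life, given as total, nucleus, cytosol and membrane, was 28.5, 13.3, 56.2 and 34.8 min with the level at 0 min held at 1, 115.3, 91.8, 97.5 and 115.5 min from a straight line on the log2 scale, and 173.1, 136.3, 169.8 and 199.1 min after centring. Over 30, 60 and 120 min it was 60.0 min (total), 82.3 min (cytosol) and 61.8 min (membrane).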
